A study of Mus musculus with 9 samples.

Results

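Transcripts of 10 genes of mitophagy and autophagy, *Pink1*, *Bnip3*, *Bnip3l*, *Fundc1*, *Sqstm1*, *Map1lc3a*, *Map1lc3b*, *Gabarapl2*, *Ulk1* and *Atg5*, were followed in mouse 8-cell embryos. The genes were chosen by symbol, and each has 1 of the 55335 entries listed for every library. The embryos came from ICR mice and were injected as zygotes, after in vitro fertilization, with nontargeting siRNA (control), with siRNA against *Mfn1* (MFN1-KD), or with siRNA against H3.3, the histone encoded by *H3f3a* and *H3f3b* (H3.3-KD), and were then cultured to the 8-cell stage. Each of the 3 groups has 3 libraries made by Smart-Seq2, an oligo-dT primed full-length cDNA method, and each library is a pool of embryos. The sample labels give 5 to 10 embryos, whereas the study's methods give 10. A knockdown by injected siRNA is transient and partial, and neither the labels nor the methods state whether the libraries of a group came from separate injections, so p-values measure the spread between these libraries only.

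Autophagy encloses cytoplasm in a double membrane and delivers it to the lysosome, and mitophagy is the form that takes up mitochondria. The kinase ULK1 starts the process, proteins of the ATG8 family (the LC3 and GABARAP proteins) are joined to the membrane lipid by a machinery that includes ATG5, and receptors on the cargo bind ATG8 proteins. Mitochondria are marked either by the kinase PINK1, which builds up on damaged mitochondria and phosphorylates ubiquitin there, or by receptors in their outer membrane such as BNIP3, BNIP3L (also called NIX) and FUNDC1. In the mouse, autophagy is switched on soon after fertilization, and embryos without *Atg5* from egg and sperm stop during cleavage. The target of one siRNA, MFN1, is a fusion protein of the mitochondrial outer membrane.

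Values are FPKM, fragments per kilobase of transcript scaled to the fragments of the library, and tests were made with limma on log2(FPKM + 1) for 13011 genes whose mean reached 1 FPKM, with Benjamini-Hochberg adjusted p-values over those genes. All 10 genes passed this filter. The targeted genes were lower in their own knockdown. *Mfn1* was 51.6, 22.6 and 23.8 FPKM in control and 9.54, 4.4 and 1.15 FPKM in MFN1-KD (log2 fold change -2.66 ± 0.58 SE, limma adjusted p = 0.0431), a call that was lost in 11 of 19 other settings. In H3.3-KD *Mfn1* was 100, 89.5 and 40.02 FPKM, 2.35-fold of control on group means, and did not pass (log2 fold change 1.21, limma adjusted p = 0.143), but was called in 3 of 19 other settings. *H3f3a* fell to 7.72% and *H3f3b* to 8.24% of the control mean in H3.3-KD, with 19 of 19 other settings giving the call. The files hold no read counts, so depth is not known. Control libraries listed 21643 to 22507 entries above 0 FPKM, H3.3-KD libraries 23655 to 24820, and MFN1-KD libraries 15577 to 20842 with replicate 3 lowest. The 8 markers of the cleavage embryo, of which *Sox2* and *Cdx2* were at or near 0 in control, summed to 99.9 to 151 FPKM in control, to 118 to 132 FPKM in MFN1-KD and to 624 to 830 FPKM in H3.3-KD. Among them *Pou5f1* ranged over 5.10 to 8.90 FPKM in control libraries but over 63.1 to 392 FPKM in those of H3.3-KD. *Klf17* ranged over 29.8 to 50.1 FPKM in control and over 195 to 401 FPKM in H3.3-KD. *Tead4*, *Tfap2c* and *Cdx2* were also above control in every H3.3-KD library, whereas *Nanog*, *Gata3* and *Sox2* overlapped control there. In every MFN1-KD library *Pou5f1* and *Klf17* were below control and *Tfap2c* was above it, and the other cleavage markers overlapped or touched control. The 6 oocyte and maternal markers summed to 32.6 to 36.3, 17.9 to 37.2 and 35.1 to 51.5 FPKM in the same order of groups, and the 5 sperm markers to 1.68 to 2.93, 0 to 0.78 and 0.16 to 0.92 FPKM. Among the maternal markers *Padi6* was 13.18, 14.66 and 12.75 FPKM in control and 4.53, 4.54 and 0.33 FPKM in MFN1-KD. The rest of them overlapped control in MFN1-KD. Of 8 cumulus and granulosa cell markers, 7 were under 1 FPKM in every library, and *Amhr2* alone was listed at 10.2 to 66.1 FPKM, highest in H3.3-KD. The part of these markers and of the number of entries listed in the results given here was not tested. Over all genes tested the median log2 fold change against control was -0.08 for MFN1-KD and 0.26 for H3.3-KD, and median-ratio scaling moved the latter to -0.00.

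In control embryos the 10 transcripts spanned more than 3 orders of magnitude in FPKM, a per-length scale. *Map1lc3b*, which encodes LC3B, stood at 9021, 11984 and 12515 FPKM, which placed it between rank 13 and rank 15 of all entries and gave it 0.810% to 0.940% of the summed FPKM. *Gabarapl2*, which encodes the GABARAP relative GATE-16, followed at 2653, 3490 and 3511 FPKM. The receptor transcripts *Bnip3l* (636, 765 and 786 FPKM) and *Bnip3* (429, 367 and 464 FPKM) came next, then *Map1lc3a* (289, 293 and 253 FPKM). None of these neighbours overlapped. *Ulk1* (79.1, 59.2 and 40.6 FPKM), *Sqstm1* (61.0, 37.0 and 33.3 FPKM) and *Atg5* (31.5, 32.6 and 33.4 FPKM) overlapped each with the next. *Fundc1* (13.3, 8.58 and 12.6 FPKM) stood apart from *Pink1* (7.84, 4.94 and 3.93 FPKM), the lowest of the set. The transcripts of the outer membrane receptors *Bnip3* and *Bnip3l* thus far exceeded that of the kinase *Pink1* in control.

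**Figure D1:**
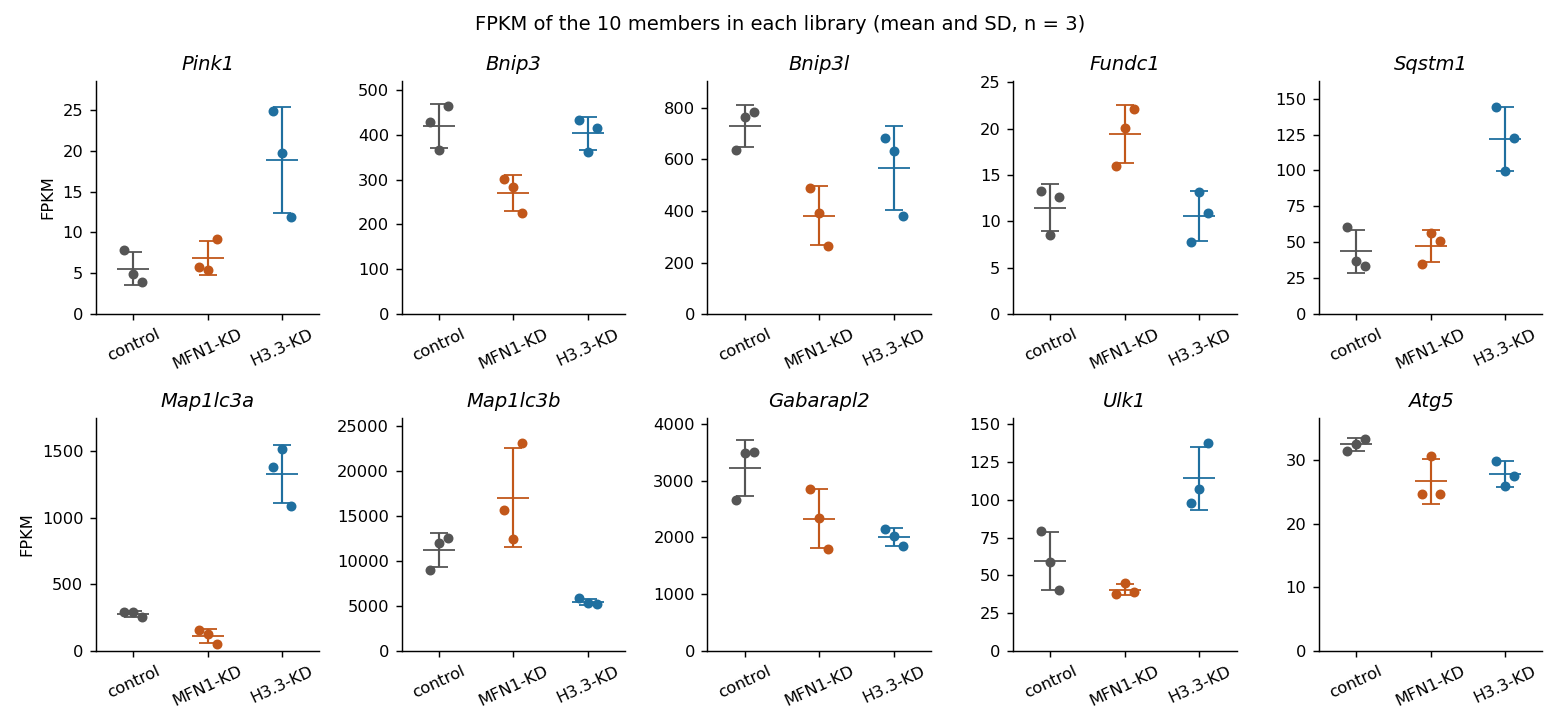
FPKM of the 10 genes in each library of the 3 groups (control, MFN1-KD, H3.3-KD). Points are libraries, horizontal bars are means and whiskers are SD (n = 3), each axis starts at 0 and differs between genes. *Map1lc3a* lay between 1088 and 1515 FPKM in H3.3-KD and between 53.5 and 155 FPKM in MFN1-KD, on opposite sides of control, and *Map1lc3b* was lowest in H3.3-KD.

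The question asked of each knockdown was which of these transcripts depart from control. In H3.3-KD, 4 of the 10 genes rose (*Map1lc3a*, *Sqstm1*, *Pink1* and *Ulk1*) and 2 fell (*Map1lc3b* and *Gabarapl2*) at a limma adjusted p under 0.05. Across all genes tested, 21.8% rose and 9.12% fell in this comparison, 2841 and 1187 genes. In MFN1-KD none rose and 1 fell by limma, *Map1lc3a*, against 1.15% rising and 2.20% falling among all genes, 150 and 286 genes. At an unadjusted limma p under 0.05 there were 2 of the 10 higher (*Fundc1* and *Map1lc3b*) and 4 lower (*Map1lc3a*, *Bnip3l*, *Bnip3* and *Gabarapl2*). That threshold was met by 3025 of all 13011 genes tested, both directions together. The shares of all genes by direction were not taken at that threshold, so no lean of the 10 genes is read from it. By the rule the study used for its lists, more than 2-fold with an unadjusted p under 0.05, 3 of the 10 were higher in H3.3-KD (23.9% of all genes) and 1 was lower (9.39%), and in MFN1-KD none was higher (5.02%) and 1 was lower (9.05%). Groups without overlap were seen for 4 genes higher (34.5% of all genes) and 3 lower (18.9%) in H3.3-KD, and for 1 higher (11.4%) and 4 lower (16.8%) in MFN1-KD. The median of the 10 log2 fold changes was -0.08 for H3.3-KD and -0.38 for MFN1-KD. Relative to the median of all genes in H3.3-KD, the log2 rises were 1.98 for *Map1lc3a*, 1.32 for *Pink1*, 1.23 for *Sqstm1* and 0.70 for *Ulk1*, and the falls were -1.28 for *Map1lc3b* and -0.93 for *Gabarapl2*. The share of rises among all calls in H3.3-KD was 70.5% and became 53.9% with median-ratio and 49.0% with upper-quartile scaling. Under the first the 10 genes gave 3 rises (15.9% of all genes) and 2 falls (13.7%). Under the second they gave 3 rises (14.5% of all genes) and 4 falls (15.1%). In pools of embryos a lower value cannot tell less RNA per cell from fewer cells that carry it.

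**Figure D2:**
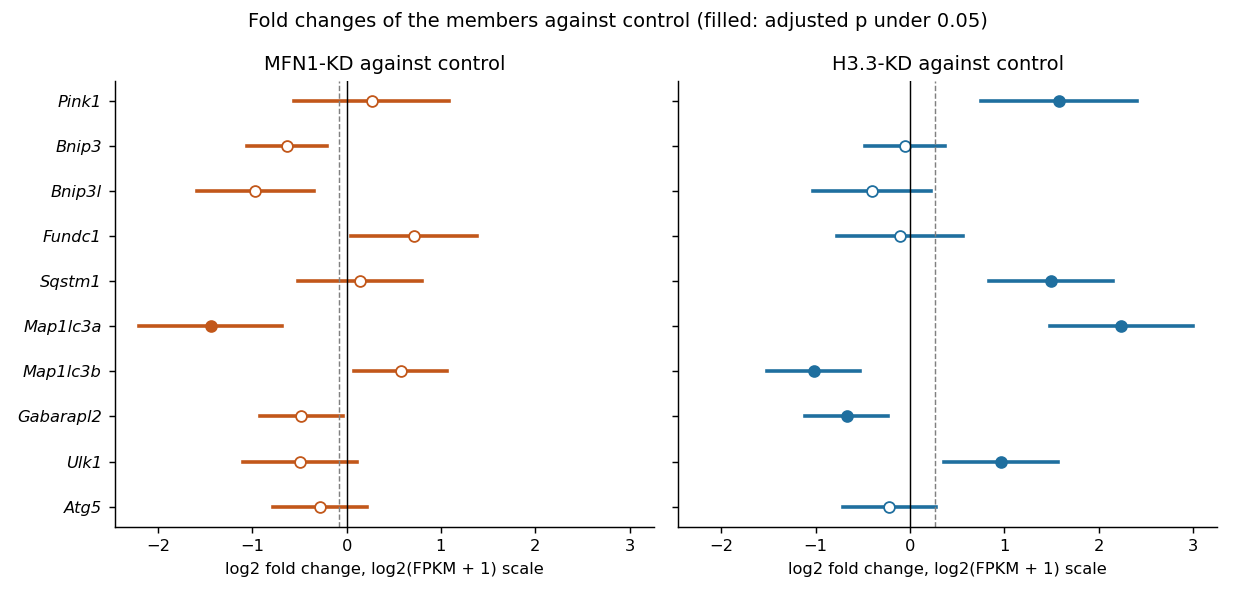
Log2 fold change of each gene against control on the log2(FPKM + 1) scale, with its 95% confidence interval, for MFN1-KD (left) and H3.3-KD (right). Filled circles have a limma adjusted p under 0.05, the solid line marks 0 and the dashed line the median of all genes, -0.08 on the left and 0.26 on the right; 1 gene is filled on the left and 6 on the right.

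In H3.3-KD the largest rise and the largest fall among the 10 genes were both in the ATG8 family. Its proteins are the membrane tags to which cargo receptors bind. *Map1lc3a* (ENSMUSG00000027602.9, chr2:155276297-155278073, + strand, GRCm38), which encodes LC3A, was listed at 1385, 1515 and 1088 FPKM in H3.3-KD, every library above the highest control of 293 FPKM. The rise was 4.78-fold on group means, and the log2 fold change was 2.24 ± 0.34 SE (limma adjusted p = 0.00105). In MFN1-KD it was 155, 125 and 53.5 FPKM, every library below the lowest control of 253 FPKM. The mean was 0.40-fold of control and the log2 fold change -1.44 ± 0.34 SE (limma adjusted p = 0.0499). The MFN1-KD call stood at the threshold: 6 of 19 other settings gave it, and it was lost when any control or H3.3-KD library or MFN1-KD replicate 2 was left out, with limma adjusted p-values over all settings of 0.0129 to 0.177. The H3.3-KD rise was called in 19 of 19 other settings, with limma adjusted p-values of at most 0.0112. Subtracting from every library its dependence on GC content and transcript length (hereafter the GC and length trend) took the log2 fold change to 1.16. GC content and length of a gene were medians over all its annotated transcripts, short ones included. They gave *Ulk1*, with 11 transcripts, 645 bases and *Bnip3*, with 5, 446 bases. These medians may differ from the transcript that is expressed, so calls kept or lost with this subtraction carry that limit.

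*Map1lc3b* (ENSMUSG00000031812.16, chr8:121590361-121598760, + strand) moved against *Map1lc3a*. It was 5828, 5317 and 5230 FPKM in H3.3-KD, all below the lowest control of 9021 FPKM, and the log2 fold change was -1.02 ± 0.22 SE (limma adjusted p = 0.00654, called in 19 of 19 other settings, and -1.93 with the GC and length trend subtracted). In MFN1-KD it was 15648, 12383 and 23095 FPKM. There 2 libraries exceeded every control and 1 lay among them, and the log2 fold change of 0.58 (95% interval 0.08 to 1.07) did not pass (limma adjusted p = 0.159). The most extreme value belonged to replicate 3, the library with the fewest entries above 0, where *Map1lc3b* ranked 6 of all entries and made 1.92% of the summed FPKM.

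*Gabarapl2* (ENSMUSG00000031950.7, chr8:111940703-111953612, + strand) was 2153, 2024 and 1842 FPKM in H3.3-KD, all below the lowest control of 2653 FPKM, with a log2 fold change of -0.67 ± 0.20 SE (limma adjusted p = 0.0272). Leaving out control replicate 2 (0.103) or 3 (0.104) ended the call, as did leaving out replicate 2 (0.0694) or 3 (0.0795) of H3.3-KD or the filter on low values (0.0673, all limma adjusted p). In MFN1-KD the values of 2846, 2344 and 1799 FPKM overlapped control, and the log2 fold change of -0.48 had a limma adjusted p of 0.184. Processed pseudogenes resemble its transcript, and *Gm3724*, which is 99.4% identical over 349 bases, was listed at 28.6 to 120 FPKM, so a part of its reads may be split with them. Of the 2 family members outside the set, *Gabarap* was listed in control at 63.1, 51.0 and 47.7 FPKM. The H3.3-KD values were 75.4, 84.4 and 139 FPKM and the MFN1-KD values 39.3, 44.1 and 21.03 FPKM. It overlapped control in neither knockdown and passed in neither (limma adjusted p = 0.0809 and 0.255), and *Gabarapl1* (4.01 ± 0.47 FPKM in control, SD, n = 3) passed in neither.

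As shares of the summed FPKM of the 5 ATG8 genes, LC3A transcripts were 2.40%, 1.85% and 1.55% in control and 14.7%, 16.9% and 13.1% in H3.3-KD. In MFN1-KD they were 0.832%, 0.840% and 0.214%. LC3B transcripts made 75.8 ± 0.8% (SD, n = 3) of control, 86.4 ± 5.3% of MFN1-KD and 61.3 ± 1.8% of H3.3-KD family FPKM. For both genes the 3 libraries of each knockdown lay outside the control range, in opposite directions, and the two-sided exact permutation p was 0.10, the smallest that 3 against 3 can give. The share of *Gabarapl2* was 21.9 ± 0.3% for control, 22.5 ± 0.3% for H3.3-KD and 12.7 ± 4.8% for MFN1-KD (exact permutation p = 0.10 for each). The ratio of LC3B to LC3A transcripts was 31.2 to 49.5 for control, 98.9 to 432 for MFN1-KD and 3.51 to 4.81 for H3.3-KD. The family's summed FPKM was 14728 ± 2349 (SD, n = 3) in control and 8902 ± 576 in H3.3-KD (exact permutation p = 0.10), and 19521 ± 5085 in MFN1-KD (exact permutation p = 0.30).

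**Figure D3:**
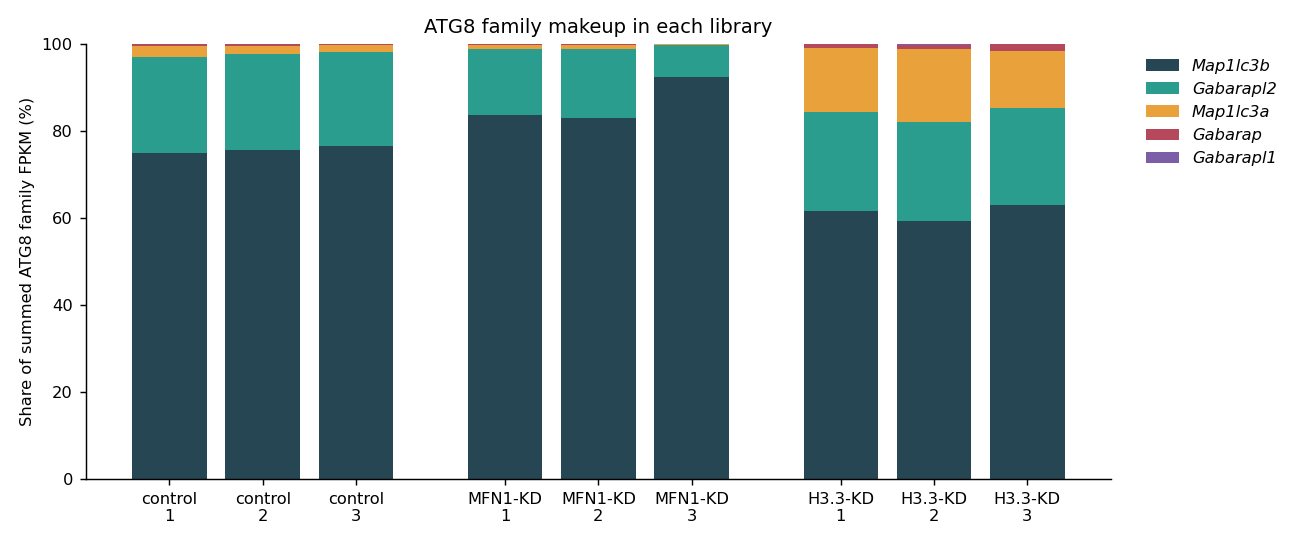
Share of each ATG8 gene in the summed FPKM of the family (%), 1 stacked bar per library. The *Map1lc3a* segment is 1.55% to 2.40% of control bars, 13.1% to 16.9% of H3.3-KD bars and 0.214% to 0.840% of MFN1-KD bars, and *Map1lc3b* is the largest segment of every bar.

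The transcripts of LC3A and LC3B were compared base by base, since they moved in opposite directions. Their coding sequences (GENCODE M21) are 366 and 378 bases long and 76.0% identical over 366 aligned bases. The most similar stretch of 60 bases, coding positions 88 to 147 in both, is shown with its 7 differing bases in capitals.
Map1lc3a: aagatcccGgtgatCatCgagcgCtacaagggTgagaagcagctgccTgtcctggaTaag
Map1lc3b: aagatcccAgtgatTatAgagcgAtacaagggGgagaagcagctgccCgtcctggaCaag
A search for other transcripts at least 90% identical over 150 bases gave no match to *Map1lc3a* or *Map1lc3b*.

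Cargo receptors and their kinase were next in the order of roles. *Sqstm1* (ENSMUSG00000015837.15, chr11:50199366-50210827, - strand) encodes p62, which links ubiquitin-marked cargo to ATG8 proteins and is itself degraded by autophagy. It was 144, 99.3 and 123 FPKM in H3.3-KD against 61.0 FPKM in the highest control, 2.79-fold on group means, with a log2 fold change of 1.49 ± 0.30 SE (limma adjusted p = 0.00419). Of 19 other settings 18 gave the call, and the replicate block with the GC and length trend subtracted did not (limma adjusted p = 0.0608). In MFN1-KD it was 35.1, 56.7 and 51.1 FPKM, all within the control range, with a log2 fold change of 0.14 (95% interval -0.52 to 0.80). The transcripts of *Sqstm1* share 583 identical bases with *Mrnip* on the other strand, which was listed at 7.67 to 21.4 FPKM, and the strand setting of the counting is not given in the sources used here.

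*Pink1* (ENSMUSG00000028756.12, chr4:138313409-138326307, - strand) was 24.8, 19.7 and 11.9 FPKM in H3.3-KD, each above the highest control of 7.84 FPKM. The log2 fold change was 1.58 ± 0.37 SE (limma adjusted p = 0.00944). The call ended with the GC and length trend subtracted, where the log2 fold change was 0.26 (limma adjusted p = 0.679). The median GC content of its annotated transcripts is 59.0%, above 94.3% of the genes tested. In MFN1-KD it was 5.81, 5.46 and 9.22 FPKM, overlapping control, with a log2 fold change of 0.27 (95% interval -0.56 to 1.09).

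*Bnip3* (ENSMUSG00000078566.8, chr7:138890836-138909519, - strand) and *Bnip3l* (ENSMUSG00000022051.15, chr14:66985239-67008877, - strand) encode paired receptors of the outer membrane, whose coding sequences are 73.5% identical. In MFN1-KD *Bnip3* was 302, 283 and 226 FPKM and *Bnip3l* 490, 394 and 264 FPKM, each library below every control. Their log2 fold changes were -0.64 (95% interval -1.06 to -0.21) and -0.97 (95% interval -1.59 to -0.34), and neither passed (limma adjusted p = 0.0892 and 0.0839), although with library weights *Bnip3l* did (0.0315). In H3.3-KD *Bnip3* was 432, 362 and 415 FPKM and *Bnip3l* 685, 633 and 380 FPKM. Both overlapped control there, with log2 fold changes of -0.06 (95% interval -0.48 to 0.37) and -0.40 (95% interval -1.03 to 0.22). *Bnip3l* made 63.4 ± 4.0% (SD, n = 3) of the summed FPKM of the pair in control, 58.0 ± 4.0% in MFN1-KD (exact permutation p = 0.20) and 57.6 ± 8.5% in H3.3-KD (exact permutation p = 0.50). Near copies could share reads with both: *Gm16439* is 98.9% identical to *Bnip3* over 564 bases and was listed at 0.70 to 11.4 FPKM, and *Bnip3l-ps* is 95.8% identical to *Bnip3l* over 1173 bases and was listed at 2.78 to 23.6 FPKM.

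*Fundc1* (ENSMUSG00000025040.13, chrX:17556564-17572325, - strand), the third receptor, went the other way in MFN1-KD. It was 15.99, 20.1 and 22.2 FPKM, each above the highest control of 13.3 FPKM, and the log2 fold change of 0.72 (95% interval 0.05 to 1.39) did not pass (limma adjusted p = 0.187). In H3.3-KD it was 7.79, 13.1 and 10.9 FPKM, overlapping control (log2 fold change -0.11, 95% interval -0.78 to 0.56). The sign of that last value turned when the GC and length trend was subtracted (0.38).

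The core machinery gave 1 call. *Ulk1* (ENSMUSG00000029512.11, chr5:110784488-110810097, - strand), the initiating kinase, was 97.7, 107 and 138 FPKM in H3.3-KD, above the highest control of 79.1 FPKM, with a log2 fold change of 0.96 ± 0.27 SE (limma adjusted p = 0.0224). The call held in 10 of 19 other settings and was lost with median-ratio (0.0879) and upper-quartile scaling (0.129), without the filter (0.0603), with the GC and length trend subtracted (0.366 without and 0.414 with the replicate block), and with replicate 2 (0.0670) or 3 (0.0948) of control or replicate 2 (0.0555) or 3 (0.0737) of H3.3-KD left out (all limma adjusted p). In MFN1-KD it was 37.6, 44.9 and 39.3 FPKM, partly below control, with a log2 fold change of -0.50 (95% interval -1.10 to 0.11). *Atg5* (ENSMUSG00000038160.7, chr10:44268358-44364291, + strand), part of the complex that attaches ATG8 proteins to lipid, varied little. It was 24.6, 30.7 and 24.6 FPKM in MFN1-KD and 29.9, 25.9 and 27.5 FPKM in H3.3-KD, all below the lowest control of 31.5 FPKM, with log2 fold changes of -0.28 (95% interval -0.78 to 0.21) and -0.22 (95% interval -0.72 to 0.28). Neither passed (limma adjusted p = 0.483 and 0.491), and with upper-quartile scaling the fall in H3.3-KD did (0.0435).

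Fold changes in H3.3-KD were higher for transcripts of higher GC content across all genes tested. In 5 bins of equal size the median log2 fold change was -0.25 in the lowest GC bin (up to 44.4% GC) and 1.01 in the highest (from 55.4% GC), and in MFN1-KD it ran from 0.17 to -0.28. Of the 4 genes that rose in H3.3-KD, *Map1lc3a* (60.2% GC), *Pink1* (59.0%) and *Ulk1* (56.4%) lie in the highest bin. After subtraction of the trend in 12776 genes, 1498 rose and 1531 fell in H3.3-KD, and among the 10 genes *Map1lc3a* and *Sqstm1* rose while *Map1lc3b* and *Gabarapl2* fell. The part of GC content in the values was not tested beyond this subtraction.

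**Figure D4:**
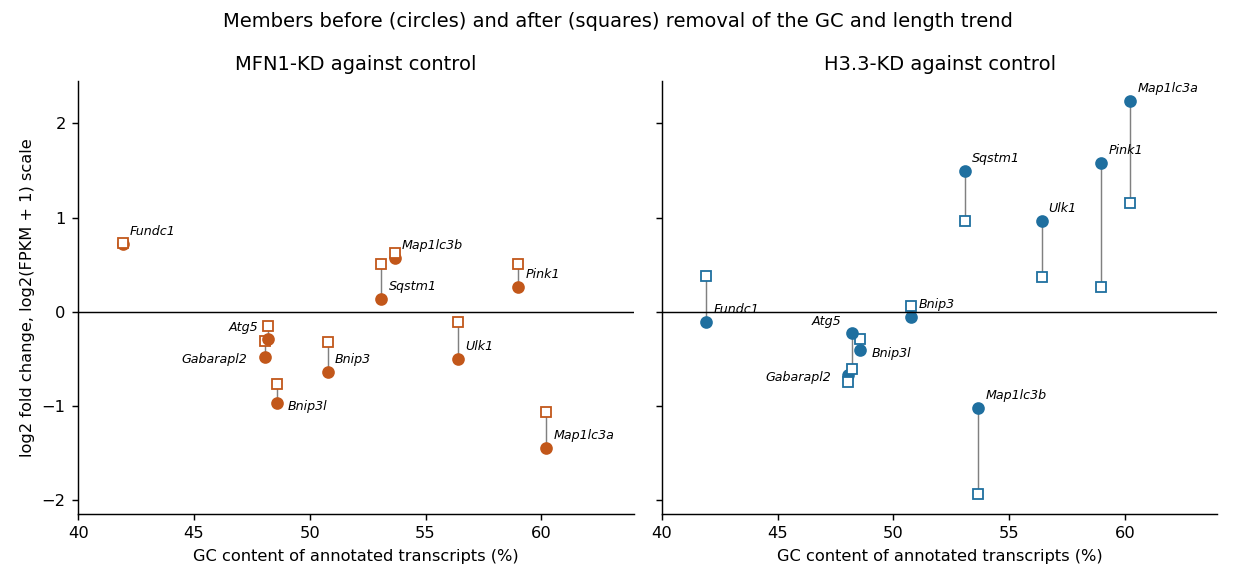
Log2 fold change against control (vertical axis) and GC content of the annotated transcripts (%, horizontal axis) of the 10 genes, as measured (filled circles) and with the GC and length trend subtracted (open squares). In H3.3-KD *Pink1* went from 1.58 to 0.26 and *Map1lc3a* from 2.24 to 1.16, while *Map1lc3b* went from -1.02 to -1.93.

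The knockdowns were also compared directly, which tests whether a gene differed between them. The share of rises among all calls was 71.4%, and 55.1% with median-ratio and 51.1% with upper-quartile scaling, and the median of all genes was 0.39. Of the 10 genes 5 were higher in H3.3-KD than in MFN1-KD (27.6% of all genes) and 1 was lower (11.0%), and without regard to the test 5 were higher (33.1%) and 2 lower (14.8%) with no overlap. *Map1lc3a* differed most, 11.9-fold on group means, with a log2 difference of 3.68 ± 0.34 SE (limma adjusted p = 5.94e-05). *Map1lc3b* was lower by a log2 difference of -1.60 ± 0.22 SE (limma adjusted p = 0.00045). These 2 calls were made in 19 of 19 other settings. *Sqstm1* (1.35, limma adjusted p = 0.00515) and *Ulk1* (1.46, limma adjusted p = 0.00222) were called in 17 of 19, and both were lost with the GC and length trend subtracted. *Pink1* (1.31, limma adjusted p = 0.0178) was called in 13 of 19, with its sign turned to -0.25 by that subtraction, and was lost under both other scalings and with replicate 1 (0.0718) or 2 (0.0608) of H3.3-KD left out. *Bnip3* (0.58, limma adjusted p = 0.0352) was called in 5 of 19 and was lost with both other scalings (0.549 and 0.736). *Fundc1* was lower with no overlap (-0.83, 95% interval -1.50 to -0.16, limma adjusted p = 0.0517) and passed under both other scalings. The intervals for *Atg5* (-0.43 to 0.56), *Gabarapl2* (-0.64 to 0.25) and *Bnip3l* (-0.06 to 1.19) included 0. *Gabarap*, outside the set, was higher in H3.3-KD than in MFN1-KD (1.50 ± 0.33 SE, limma adjusted p = 0.00526).

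Promoter sequences from RefSeq (GRCm38.p6, 250 bases before to 50 after the start) were found for 8 of the 10 genes, all but *Map1lc3a* and *Bnip3l*. Those of the 2 genes that fell in H3.3-KD and of 3 of the 4 that rose are shown, without *Map1lc3a*, the gene with the largest rise. They were searched for short letter patterns and were not aligned with each other. The letters searched on both strands were CACGTG (the E-box core that TFEB family factors bind), TGACNNNGC (the antioxidant response core of NRF2), ACGTG (the hypoxia response core, which lies within CACGTG) and TATAAA, and matches are in capitals.
Map1lc3b, chr8:121590188-121590487, + strand: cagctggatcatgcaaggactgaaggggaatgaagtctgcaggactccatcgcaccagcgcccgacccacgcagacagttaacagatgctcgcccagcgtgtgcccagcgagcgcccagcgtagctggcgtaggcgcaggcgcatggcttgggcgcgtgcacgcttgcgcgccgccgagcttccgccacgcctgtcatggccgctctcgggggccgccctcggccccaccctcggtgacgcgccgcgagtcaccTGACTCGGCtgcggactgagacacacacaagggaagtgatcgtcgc
Gabarapl2, chr8:111940453-111940752, + strand: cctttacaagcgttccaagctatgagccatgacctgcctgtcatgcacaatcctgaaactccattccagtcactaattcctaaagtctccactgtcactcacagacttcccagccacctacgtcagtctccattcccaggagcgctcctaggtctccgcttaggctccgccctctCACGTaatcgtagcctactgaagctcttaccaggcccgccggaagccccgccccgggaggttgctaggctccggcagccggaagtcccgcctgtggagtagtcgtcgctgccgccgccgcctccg
Sqstm1, chr11:50210771-50211070, - strand: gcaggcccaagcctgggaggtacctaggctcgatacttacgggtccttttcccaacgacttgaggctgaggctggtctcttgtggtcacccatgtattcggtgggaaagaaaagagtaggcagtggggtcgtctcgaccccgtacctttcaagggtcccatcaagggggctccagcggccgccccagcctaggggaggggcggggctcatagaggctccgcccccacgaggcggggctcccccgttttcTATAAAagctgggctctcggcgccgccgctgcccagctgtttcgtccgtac
Pink1, chr4:138326247-138326546, - strand: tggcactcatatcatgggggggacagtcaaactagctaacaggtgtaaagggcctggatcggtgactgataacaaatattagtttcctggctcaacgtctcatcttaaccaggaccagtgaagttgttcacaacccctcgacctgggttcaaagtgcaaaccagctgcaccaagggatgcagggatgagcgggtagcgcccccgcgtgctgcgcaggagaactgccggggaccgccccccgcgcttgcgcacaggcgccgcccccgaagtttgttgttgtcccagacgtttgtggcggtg
Ulk1, chr5:110810032-110810331, - strand: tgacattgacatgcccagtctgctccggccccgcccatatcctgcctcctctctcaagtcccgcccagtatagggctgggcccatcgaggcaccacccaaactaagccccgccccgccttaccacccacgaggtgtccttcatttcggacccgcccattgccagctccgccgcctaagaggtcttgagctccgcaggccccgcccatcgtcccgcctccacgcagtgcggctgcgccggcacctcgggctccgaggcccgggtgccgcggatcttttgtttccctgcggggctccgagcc

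*Map1lc3b* holds 1 match to TGACNNNGC, which begins at base 5 after the start and is found in 12.4% of 32851 promoters of this length. *Gabarapl2* holds 1 match to ACGTG, which begins at base -75 (19.6% of promoters). *Sqstm1* holds 1 match to TATAAA (13.6%), which begins at base -1 and so lies across the annotated start. *Pink1* and *Ulk1* hold none of the 4. CACGTG (7.15% of promoters) was found in *Bnip3* and *Atg5*, which passed the test in neither knockdown. GC content was 68.0% in *Map1lc3b*, 60% in *Gabarapl2*, 63.3% in *Sqstm1*, 58.0% in *Pink1* and 68.0% in *Ulk1*, so the genes that fell and the genes that rose overlapped in this measure. A match describes letters and not a bound site, and no match says only that these letters are not in the window.

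The wider pathway was taken as 11 lists with 114 genes in all, of which 113 had an entry and 105 passed the filter. Of the 95 that are not among the 10 genes, 31 rose (32.6%, beside 21.8% of all genes) and 6 fell (6.32%, beside 9.12%) in H3.3-KD, with a median log2 fold change of 0.61 beside 0.26 for all genes. With the GC and length trend subtracted, 13 rose and 8 fell, where 11.7% of all genes rose and 11.98% fell, and the median was 0.12 beside -0.02. The share that rose was then near that of all genes. In MFN1-KD 2 of the 95 were higher and 18 lower at an unadjusted limma p under 0.05. That threshold was met by 3025 of all 13011 genes tested, both directions together. The shares of all genes by direction were not taken at that threshold, so no lean of the 95 is read from it. At a limma adjusted p under 0.05 none rose (1.15% of all genes) and 3 fell (3.16%, near the 2.20% of all genes), and the median was -0.22 beside -0.08. The 3 were *Atg4b* (27.8% of control; the protease that primes ATG8 proteins), *Atg101* (39.9% of control; a subunit of the ULK1 complex) and *Ctsb* (33.6% of control; a lysosomal protease), with limma adjusted p-values of 0.0333, 0.0351 and 0.0325. Each call was lost in at least 9 of 19 other settings, among them those that left out any 1 control library or replicate 1 or 2 of H3.3-KD.

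The counts that follow are for lists of 5 to 13 tested genes, the 10 genes included, and stand beside 21.8% of all genes that rose and 9.12% that fell in H3.3-KD, and nothing particular to a list is read from them. Among genes of the PINK1 pathway, 5 of 12 tested rose in H3.3-KD and 2 fell (*Tomm7*, a subunit of the import pore that holds PINK1 at the outer membrane, at 47.3% of control, and *Tbk1*, a kinase of cargo receptors, at 17.4%). *Mul1*, a mitochondrial ubiquitin ligase, rose by a log2 fold change of 1.79 ± 0.30 SE and *Vcp*, which extracts ubiquitinated proteins from the mitochondrial surface, by 1.56 ± 0.28 SE (limma adjusted p = 0.00168 and 0.00253). The *Mul1* call was lost with the GC and length trend subtracted (0.136) and the *Vcp* call was not (0.000922). Of the mitophagy receptors and their regulators, 3 of 10 rose and none fell, with *Fkbp8*, an outer membrane receptor for LC3A, at 58.8 to 67.7 FPKM against 10.7 to 17.7 in control (2.17 ± 0.27 SE, limma adjusted p = 0.000362). *Bcl2l13*, another outer membrane receptor, rose by 1.89 ± 0.36 SE (limma adjusted p = 0.00344). Of the selective autophagy receptors, 4 of 10 rose and none fell. *Tollip* (1.50 ± 0.30 SE) and *Tex264*, a receptor of the endoplasmic reticulum (1.42 ± 0.38 SE), both lost the call with the GC and length trend subtracted. The *Tex264* call was made in 11 of 19 other settings and was also lost with upper-quartile scaling, without the filter, and with replicate 2 or 3 of control or replicate 1 or 2 of H3.3-KD left out.

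**Figure D5:**
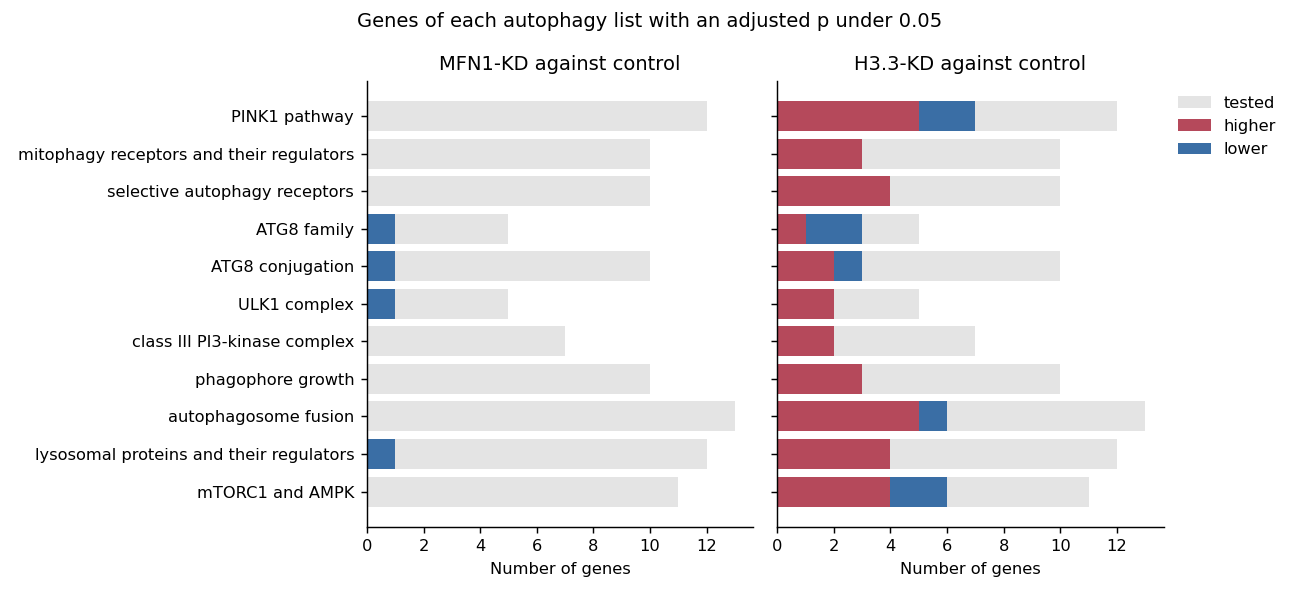
Number of genes tested in each autophagy list (grey) and of those with a limma adjusted p under 0.05 that were higher (red) or lower (blue) than control, in MFN1-KD (left) and H3.3-KD (right). The lists include the 10 genes; in MFN1-KD no list had a gene higher, and in H3.3-KD every list had at least 1.

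In the list of phagophore growth 3 of 10 genes rose in H3.3-KD and none fell, beside the 21.8% and 9.12% of all genes. *Atg9a*, a lipid scramblase on the vesicles that seed the autophagosome, was 122, 132 and 141 FPKM against 12.1, 5.76 and 7.50 FPKM in control, a log2 fold change of 3.86 ± 0.30 SE (limma adjusted p = 4.36e-05) that was called in 19 of 19 other settings. *Wdr45b*, a lipid-binding WIPI protein, rose by 1.57 ± 0.20 SE (limma adjusted p = 0.000488). In the ULK1 complex 2 of 5 rose, *Ulk1* and its partner *Atg13* (1.91 ± 0.30 SE, limma adjusted p = 0.00133). In the class III PI3-kinase complex 2 of 7 rose, *Ambra1* (1.60 ± 0.37 SE) and *Nrbf2* (1.22 ± 0.34 SE), and both calls were lost with the GC and length trend subtracted. The *Nrbf2* call was made in 11 of 19 other settings and was also lost with both other scalings, without the filter, and with replicate 2 or 3 of control or replicate 3 of H3.3-KD left out.

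In the ATG8 conjugation list 2 of 10 rose and 1 fell in H3.3-KD. *Atg16l1*, which places the conjugation complex on membranes, rose by 2.01 ± 0.33 SE (limma adjusted p = 0.00166), whereas *Atg10*, the enzyme that joins ATG12 to ATG5, was 5.89, 3.50 and 8.76 FPKM against 39.3, 20.9 and 32.5 FPKM in control (-2.20 ± 0.37 SE, limma adjusted p = 0.00168). Both were called in 19 of 19 other settings. Autophagosome fusion had 5 of 13 genes higher and 1 lower (*Vamp8*). Its *Vps18* (1.72 ± 0.33 SE) and *Vps11* (1.45 ± 0.40 SE), subunits of vacuolar tethering complexes, lost the call with the GC and length trend subtracted. The *Vps11* call was made in 11 of 19 other settings and failed in those in which that of *Tex264* did.

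Lysosomal genes and regulators had 4 of 12 higher and none lower in H3.3-KD, against the same shares of all genes. *Tfeb*, a transcription factor of lysosomal and autophagy genes, was 40.9, 43.4 and 71.2 FPKM against 3.09, 2.19 and 2.20 FPKM in control, a log2 fold change of 3.88 ± 0.40 SE (limma adjusted p = 0.000172). *Ctsb* rose by 1.88 ± 0.25 SE in H3.3-KD (limma adjusted p = 0.000556), whereas it fell in MFN1-KD. The list of mTORC1 and AMPK had 4 of 11 higher and 2 lower (*Rheb* and *Tsc2*). *Stk11*, the kinase LKB1 that activates AMPK, rose by 1.95 ± 0.29 SE (limma adjusted p = 0.00085), and *Prkab1*, an AMPK subunit, by 1.26 ± 0.26 SE (limma adjusted p = 0.0051), the latter lost with the GC and length trend subtracted.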

How the data were processed

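RNA of 9 pools of mouse 8-cell embryos (3 control, 3 MFN1-KD, 3 H3.3-KD) was measured. The authors made Smart-Seq2 libraries, trimmed reads with cutadapt 1.16 and mapped them to mm10 with STAR, and the study's own test was DESeq2. The values deposited by the authors are FPKM per gene symbol, rounded to 2 decimals. The program that made FPKM, the annotation and the strand setting are not given in the sources used here. FPKM are not counts, so limma 3.58.1 (R 4.3.3; trend and robust options, 1 model over all 9 libraries, no covariate) was fitted to log2(FPKM + 1) of 13011 genes whose mean reached 1 FPKM. A fold change on this scale understates that of low genes.

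The 10 genes and the 11 pathway and 4 marker lists were chosen with earlier results of these data known. All 10 genes are named, with the targets and, per list and knockdown, at most the 2 other genes with the smallest adjusted p among those past 0.05 without overlap with control. *Pou5f1*, *Klf17*, *Tead4*, *Tfap2c*, *Nanog*, *Gata3*, *Sox2*, *Cdx2*, *Padi6*, *Amhr2*, *Gabarap*, *Gabarapl1*, *Gm3724*, *Gm16439*, *Bnip3l-ps* and *Mrnip* were named after their values were seen, as were list genes that fell. Positions, GC content and lengths came from GENCODE M21 (GRCm38, also called mm10) and covered 98.2% of genes tested. Similar transcripts were searched with blastn. Shares were compared by two-sided exact permutation. The fit was run on simulated data with independent noise and without library, GC or scaling effects, so that run says nothing about those effects. The alternatives were 2 scalings, a pseudocount of 0.1, no filter, a filter at a mean of 5 FPKM, only the 6 libraries compared, a replicate block, removal of the GC and length trend (splines with 5 degrees of freedom) with and without the block, library weights, and each library left out. Depth is unknown, so no counting error is given. Software was Python 3.11.15, with pandas 2.3.3, numpy 2.4.6, scipy 1.17.1, Biopython 1.88 and matplotlib 3.10.9. Read counts and protein sequences were not used here, and 1 list gene is not reported here by name.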

Additional observations from a re-analysis of the deposited data

How the results depend on the processing

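Counts in MFN1-KD were the least stable. Against 150 genes higher and 286 lower, limma gave 93 higher with a pseudocount of 0.1, 0 and 2 without the filter, 83 and 137 with the GC and length trend subtracted, and 570 and 823 with library weights. With only the 6 libraries compared it gave 0 and 0, although 2724 genes had an unadjusted p under 0.05 there. With 1 library left out it gave 0 to 148 higher and 0 to 517 lower, and 0 of both without control replicate 2 or 3 (2002 and 1986 genes at an unadjusted p under 0.05). Of the 10 genes, the 1 lower in MFN1-KD became 0 with the pseudocount of 0.1, without the filter, with 6 libraries and with the trend subtracted, became 2 with library weights, and ranged over 0 to 1 with a library left out.

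In H3.3-KD, 2841 genes higher and 1187 lower became 1888 and 1968 with upper-quartile scaling and 4734 and 2246 with library weights, and 1498 were higher with the trend subtracted. Leaving out a library gave 1763 to 3441 and 669 to 1629, the lowest of each without control replicate 3. Of the 10 genes, the 4 higher became 2 with the trend subtracted, and the 2 lower became 4 with upper-quartile scaling, 1 without the filter and 1 to 2 with a library left out. Between the knockdowns, the 3591 genes higher became 1772 with the trend subtracted, and the 1437 lower became 2179 with median-ratio and 2374 with upper-quartile scaling. Of the 10 genes, the 5 higher became 3 with either scaling, 1 with the trend subtracted and 3 to 5 with a library left out (3 without H3.3-KD replicate 1 or 2), and the 1 lower became 2, 3 and 2 with median-ratio scaling, upper-quartile scaling and the filter at 5 FPKM. The causes were not tested.

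Correlations between libraries did not settle whether the replicate numbers shared by the groups pair them. The 9 correlations of same-numbered libraries ran from -0.05 to 0.16, with 2 over 0.1, and 5 libraries correlated best with their own number. Those of differently numbered libraries ran from -0.12 to 0.07. With the numbers as a replicate block, MFN1-KD had 6 genes higher and 25 lower, and none of the 10 passed, H3.3-KD had 2732 and 1171, and the direct comparison 3490 and 1371. The block with the trend subtracted gave 0 and 4 in MFN1-KD (2726 at an unadjusted p under 0.05), 1381 higher in H3.3-KD with 1 of the 10 genes, and 1647 higher between the knockdowns with 1 of the 10.

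Signs turned in values that had not passed, except for *Pink1* between the knockdowns. With the trend subtracted, with or without the block, log2 fold changes were 0.039 for *H3f3b* in MFN1-KD, 0.062 for *Bnip3* and 0.38 for *Fundc1* in H3.3-KD, and -0.25 for *Pink1* and -0.46 for *Atg5* between the knockdowns. *Atg5* was also -0.34 with median-ratio and -0.41 with upper-quartile scaling, and *Fundc1* in H3.3-KD was 0.15 with library weights. With a library left out, *Sqstm1* in MFN1-KD ranged from -0.026 to 0.40, *Bnip3* in H3.3-KD from -0.15 to 0.019, *Fundc1* in H3.3-KD from -0.29 to 0.0785, and the *Gabarapl1* share of the ATG8 family in MFN1-KD minus control from -0.0162 to 0.00114 percentage points. *Mfn1* passed as higher in H3.3-KD with the replicate block (limma adjusted p = 0.0323), with the block and the trend subtracted (0.0176) and with library weights (0.00173). Among the 10 genes, further calls were *Bnip3l* lower in H3.3-KD with upper-quartile scaling (limma adjusted p = 0.0486), and between the knockdowns *Gabarapl2* lower with that scaling (0.0320), *Fundc1* lower with the filter at 5 FPKM (0.0442) and *Bnip3l* higher without H3.3-KD replicate 3 (0.0401).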
